A study of Arabidopsis thaliana with 8 samples.

Results

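Seedlings of the pTA-ANAC096 line were compared with seedlings of the pTA empty vector line after dexamethasone and without abscisic acid (ABA). The comparison rests on 4 of the 8 one-colour Agilent arrays of the study, chosen by their titles: ANAC096 replicates 1 and 2 (pTA-ANAC096 line, 30 µM dexamethasone for 1 h) and control replicates 1 and 2 (pTA empty vector, 30 µM dexamethasone for 1 h). All seedlings were Arabidopsis thaliana of the Col-0 background, 12 days old and grown in liquid MS medium, and total RNA came from whole seedlings. The other 4 arrays held the same lines with 2 µM ABA added for the last 30 min: ANAC096+ABA (pTA-ANAC096 line) and ABA (empty vector line), with 2 arrays each. Dexamethasone was given to every group, so differences between the lines that existed before it cannot be told apart from those that followed it. How many transgenic lines were used, and whether plants were pooled, is not given in the sources used here. Each condition had 2 biological replicates according to the series' design, which does not say how they were grown. The p-values therefore set a difference only against the spread between these replicate arrays, pooled over all 8 arrays.

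NAC proteins are a large family of plant transcription factors that share a conserved DNA-binding domain near the N terminus and differ in the regulatory part that follows it. Several members of the family are known for roles in drought, salt and senescence responses. ABA is the hormone that plants accumulate under dehydration and osmotic stress, and it acts largely through bZIP transcription factors that bind ABA-responsive promoter elements. In pTA vectors, a steroid-activated chimeric transcription factor binds the promoter of the transgene, so that dexamethasone switches the transgene on. An empty vector line carries the same activator with no inserted gene and is the usual control for effects of the steroid and the activator. The comparison without ABA addresses what the presence of pTA-ANAC096 changes when no hormone is added.

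The array names its probes by the maker's identifiers only, and neither the deposited files nor the reference table used here pairs them with genes. Levels of ANAC096 itself, of ABA-responsive genes and of leaf or root markers were therefore not analysed here, and the labels of line and tissue could not be checked by their transcripts. Results are given for probes, and 4 probes are named, those with the 2 largest rises and the 2 largest falls among probes measured in both groups. Of 43603 probes, 34503 were tested: each was well above background on both replicates of 1 or more of the 4 groups. The share of probes well above background was 78.1% to 78.9% on the ANAC096 arrays and 77.8% to 79.8% on the control arrays. No spot was saturated. All arrays lay on 1 slide, with ANAC096 and control in the same row but in different columns, so slide column and line cannot be told apart.

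Levels are log2 processed signals relative to the 75th percentile of all spots on the same array, so a level of 0 is that percentile. A change is the ANAC096 mean minus the control mean on this log2 scale. A probe is described as changed where limma's adjusted p was under 0.05, and for most counts where the change was also at least 2-fold.

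The replicates of each group lay close together and the groups stood apart. The ANAC096 replicates differed by a median of 0.07 on the log2 scale across tested probes, and the control replicates by a median of 0.0983. Between an ANAC096 and a control array the median difference was 0.289 to 0.329 in the 4 possible pairs. Only 0.809% of tested probes were at least 2-fold apart between the ANAC096 replicates and 0.962% between the control replicates, against 9.57% to 11.5% between an ANAC096 and a control array. The number of probes at least 2-fold higher on the ANAC096 array was 2312 to 3022 in these pairs, and the number at least 2-fold lower was 929 to 1004. In each of the 4 pairs the higher probes outnumbered the lower ones on this scale.

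Differences between the lines were widespread and mostly small. Limma called 20434 probes, 59.2% of those tested, and 25% of all tested probes lay below a change of -0.3 and 25% above 0.29. Called higher were 9191 probes (26.6%) and called lower 11243 (32.6%). Both ANAC096 arrays lay above both control arrays for 12149 of 34011 probes with a value on all 4 arrays (35.7%), and below both for 14867 (43.7%). With 2 arrays against 2, the smallest two-sided p of an exact permutation test is 0.333, and a call for a single probe rests on the limma model and its pooled spread.

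Among larger changes on the 75th percentile scale, rises in the ANAC096 line were more frequent than falls, and their ratio grew with the fold up to 16-fold. At least 2-fold higher were 2443 probes (7.08% of those tested), and at least 2-fold lower 819 (2.37%), a ratio of 2.98. At 4-fold the counts were 617 higher and 114 lower, a ratio of 5.41. At 8-fold 183 were higher and 28 lower, and at 16-fold 68 and 6, a ratio of 11.3. At least 32-fold changes comprised 21 higher and 4 lower probes, a ratio of 5.25 resting on those 4 probes, and at least 64-fold changes 8 higher and 0 lower. Requiring the fold in each of the 4 array pairs left 1908 higher and 549 lower probes at 2-fold, and 142 and 18 at 8-fold. At the other end of the range, 99 percent of tested probes lay below a change of 2.4 and 1 percent below -1.39.

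Part of these large changes were bounds rather than measured sizes. Of the 2443 higher probes, 2074 (84.9%) were well above background on all 4 arrays, and 168 were well above background on both arrays of ANAC096 but on neither of control. Of the 819 lower probes, 636 (77.7%) were measured on all 4 arrays, and 119 were well above background on both arrays of control but on neither of ANAC096. Another 10 of the higher probes were above background on none of the 4 arrays and have no measured change. With each dim group set no lower than the dimmest signal called well above background on its arrays, 2401 probes were at least 2-fold higher and 752 at least 2-fold lower, and at 8-fold 148 and 18. Among probes measured on all 4 arrays alone the 8-fold counts were 106 and 10, so rises outnumbered falls under each of these counts.

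**Figure D1:**
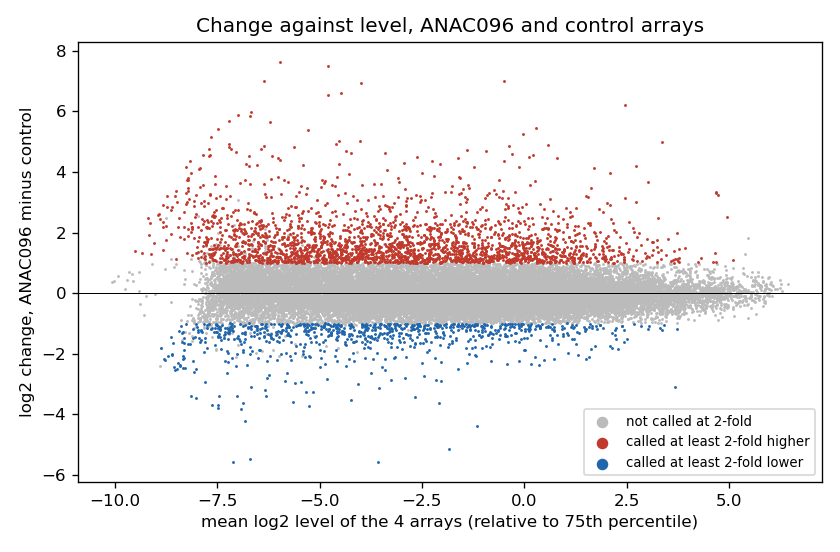
Each point is 1 of the 34503 tested probes, with its mean log2 level over the 4 ANAC096 and control arrays on the horizontal axis and its log2 change (ANAC096 minus control) on the vertical axis, both scaled to each array's 75th percentile. Red points are the 2443 probes called at least 2-fold higher and blue points the 819 called at least 2-fold lower; the red points reach further from 0 than the blue ones and both thin out at high levels.

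Changes of at least 2-fold were called more often among probes with dim signals. Signals of different probes depend on the probe as well as on the transcript, so these bins order signals, not abundance. Tested probes were split by their mean level over the 4 arrays into 5 bins of 6900 or 6901 probes. In the dimmest bin, 13.1% were at least 2-fold higher and 5.07% at least 2-fold lower. In the brightest bin, these shares were 3.3% and 0.855%. The shares fell step by step across the bins between them, and in each bin rises outnumbered falls at 2-fold. The spread between replicates was also widest in the dimmest bin, with a median SD of 0.108 for ANAC096 and 0.132 for control, against 0.0417 and 0.0561 in the brightest; its part in the larger share was not tested.

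At any fold the order of rises and falls depended on the signal. In the dimmest bin 2079 probes were called higher and 1389 lower, and the median change was 0.14. In the other 4 bins falls outnumbered rises, for example 1681 higher and 2722 lower in the middle bin, where the median change was -0.1. In the brightest bin 1715 were called higher and 2168 lower. When arrays were scaled to spike-in transcripts instead, lower calls prevailed over all tested probes (2572 higher and 25670 lower).

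**Figure D2:**
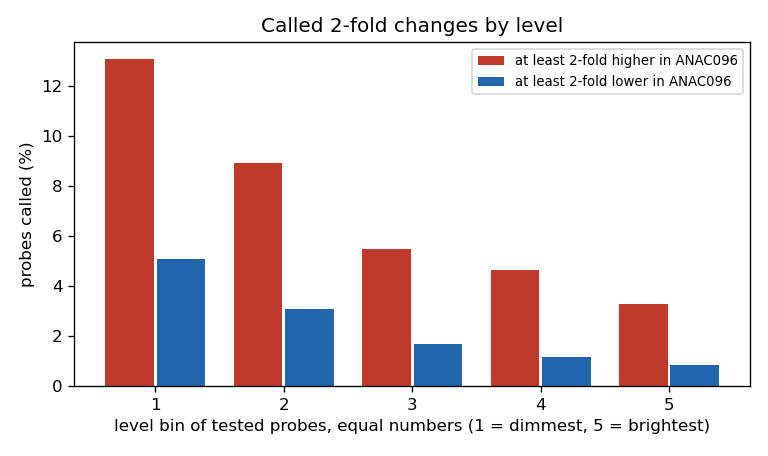
Bars give the percent of tested probes called at least 2-fold higher (red) and at least 2-fold lower (blue) in ANAC096 than in control, for 5 equal bins of the tested probes ordered by mean level over the 4 arrays. Both shares were lower the brighter the signal, with 13.1% and 5.07% in the dimmest bin and 3.3% and 0.855% in the brightest.

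Levels of the changed sets are given here for each group. Among the 2074 rising probes measured on all 4 arrays, the median level was -1.77 in ANAC096 and -3.42 in control. Among the 636 falling probes measured on all 4 arrays, the median level was -3.59 in ANAC096 and -2.14 in control. Probes that were not called had medians of -1.3 in ANAC096 and -1.28 in control. Their median changes were -1.23 for falls and 1.42 for rises, but the members were chosen by these changes, so the values are a description.

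Probes printed more than once on the array show the error between spots. Of the tested probes, 13382 had a usable pair of spots on all 4 arrays. The change computed from either spot alone differed by a median of 0.0706 between the spots. Among the 957 such probes called at least 2-fold higher, both spots alone passed 2-fold in 866 (90.5%). Among the 304 called at least 2-fold lower, both spots alone passed 2-fold in 247 (81.2%). The calls were made on the mean of these same spots, so agreement in direction is no separate support. The spots also share their RNA, labelling and hybridisation, so they measure the error of printing and reading, not that between plants.

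The change varied little with position on the array. Across 8 bands of rows the median change ranged from -0.07 to -0.01, and across 4 bands of columns from -0.05 to -0.02. The share of spots at least 2-fold higher was 6.81% to 8.12% in the bands of rows and 7.04% to 7.96% in the bands of columns.

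A_84_P21604 had the largest rise among probes measured on all 4 arrays. Its level was 3.03 and 2.97 on the ANAC096 arrays, against -4.04 and -3.95 on the control arrays. The processed signal itself was 43000 and 51200 on the ANAC096 arrays, against 495 and 473 on the control arrays. The change was 6.99 on the log2 scale, or 128-fold (SE 0.0786, limma adjusted p 6.0e-07). Both of its spots on each array lay within the same gap, from 2.96 to 3.08 in ANAC096 and from -4.14 to -3.86 in control.

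A_84_P787940 rose almost as far but started near background. Its level was -0.48 and -0.57 on the ANAC096 arrays, against -7.58 and -7.34 on the control arrays. The processed signal was 3770 and 4430 in ANAC096, against 42.5 and 45 in control, and the probe was well above background on all 4 arrays. The change was 6.94, or 123-fold (SE 0.166, limma adjusted p 2.3e-06). With normexp correction and quantile normalization of the median signals, the change was 5.42.

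A_84_P761415 had the largest fall. Its level was -6.33 and -6.39 on the ANAC096 arrays, against -0.78 and -0.79 on the control arrays. The groups did not overlap, and the replicates of each group differed by far less than the groups. The change was -5.57, a fall of 47.7-fold (SE 0.0437, limma adjusted p 3.7e-07). With normexp correction and quantile normalization of the median signals it was -4.65.

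A_84_P11480 had the next largest fall among probes measured on all 4 arrays. Its level was -3.4 and -3.31 on the ANAC096 arrays, against 1.08 and 0.98 on the control arrays, a change of -4.38 or 20.9-fold (SE 0.0585, limma adjusted p 7.3e-07). The named probes stood at the end of a long tail of rises and a shorter one of falls. Among probes measured in both groups, the rise ranked 15 was 4.7, the one ranked 50 was 3.58 and the one ranked 100 was 3.09. The falls of the same ranks were -2.88, -2.11 and -1.68.

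**Figure D3:**
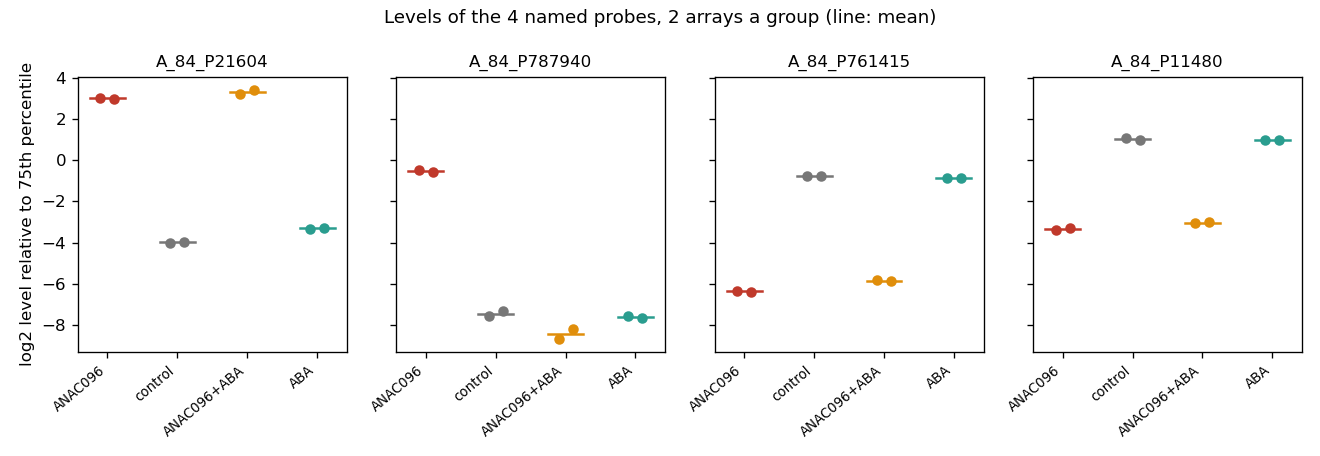
Log2 levels, scaled to each array's 75th percentile, for the 4 named probes, with 1 point per array and a line at the mean of the 2 arrays of each group. ANAC096 and ANAC096+ABA lie together and apart from control and ABA for A_84_P21604, A_84_P761415 and A_84_P11480, while A_84_P787940 is high on the ANAC096 arrays (-0.48 and -0.57) and below -7 on all 6 others.

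The same line difference was measured on the arrays with ABA. The size and direction of the changes that chose the 2-fold probes came from the arrays without ABA, but the arrays with ABA entered the pooled spread behind the calls and the background filter, and a fit of the 4 arrays without ABA alone gave 2401 rises and 824 falls. Of the 2443 probes that rose without ABA, 1540 (63%) were also called higher in ANAC096+ABA than in ABA, where 22% of all tested probes were called higher. At least 2-fold higher with ABA were 801 of them (32.8%), against 3.98% of all tested probes. Called in the opposite direction were 278 (11.4%), where 22.6% of all tested probes were called lower. Another 625 were not called. The median change of these probes was 0.62 with ABA and 1.48 without.

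For falls, the share called again depended on the scale. On the 75th percentile scale, of the 819 probes that fell without ABA, 600 (73.3%) were also called lower with ABA, against 22.6% of all tested probes. At least 2-fold lower were 292 (35.7%), against 3.36% of all tested probes. Opposite calls were made for 24 (2.93%), where 22% of all tested probes were called higher. The median change was -0.69 with ABA and -1.28 without. The share of 73.3% is above that of the rises on this scale. The order turns when both scales are required (46.8% of falls against 66.7% of the rises past 2-fold on both scales). These sets are unlike, because the spike-in scaling keeps all falls but only the larger rises. With ABA it also makes lower calls harder and higher calls easier. Over all tested probes, 5.44% were called lower and 22% higher on both scales. No test of the difference was made.

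Larger changes were more often at least 2-fold with ABA as well. Among rises of 2 to 4-fold, 28% were again at least 2-fold higher, among rises of 4 to 8-fold 44.9%, and among the 183 of at least 8-fold 51.9%. Among falls these shares were 29.9% of 705, 72.1% of 86 and 67.9% of 28, so the share did not rise further at 8-fold. The share called in the same direction at any fold changed less with size, being 61.3%, 69.4% and 65.6% for rises. Of the rises of at least 8-fold, 50 were not called and 13 were called lower with ABA. Of these 183 probes, 33 were well above background on no ANAC096+ABA array, 42 on no ABA array and 63 on no control array. Of the 28 falls of at least 8-fold, 15 were well above background on no ANAC096+ABA array and 5 on no ABA array. For such probes the size of the line difference with ABA is a bound or was not measured.

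**Figure D4:**
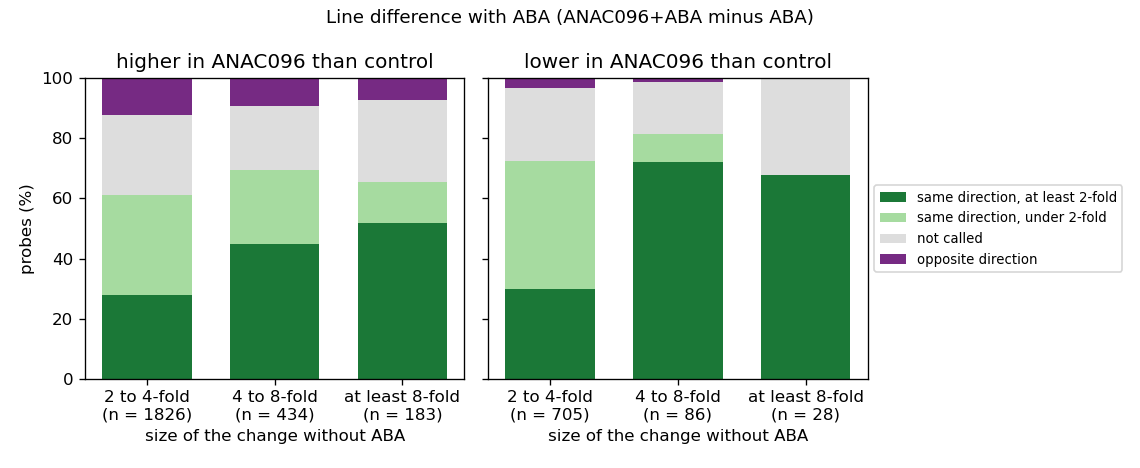
Bars split the probes called at least 2-fold higher (left) or lower (right) in ANAC096 than in control, by the size of that change, into shares by their call in ANAC096+ABA minus ABA: same direction at 2-fold or more, same direction under 2-fold, not called, or opposite. Among the largest changes, 51.9% of 183 rises and 67.9% of 28 falls were again at least 2-fold.

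On the 75th percentile scale, the line difference was smaller with ABA for most of the probes that rose or fell. The interaction (line difference with ABA minus that without) was called against the direction of the change for 1681 of the 2443 rises (68.8%) and for 479 of the 819 falls (58.5%), and called as a larger difference for 125 and 48. Over all tested probes the interaction was called lower for 18.8% and higher for 23.2%. The interaction uses the arrays that chose these probes, which favours smaller differences with ABA, so these counts are a description. When arrays were scaled to spike-in transcripts, the count for the rises split into 698 smaller and 746 larger with ABA, while 770 of the falls were smaller and 8 larger. The spike-in shift between the lines was 0.62 without ABA and -0.36 with ABA. Scaling to the spike-ins thus raises the interaction of every probe alike, which favours smaller falls and larger rises with ABA. These counts therefore say nothing particular to the falls or rises, and the share over all tested probes on that scale is not given here. Arrays with ABA lay in the other row of the slide, so ABA and slide row cannot be told apart.

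Levels in all 4 groups show where the large rises stood. The median level of the 183 probes at least 8-fold higher in ANAC096 was -2.17 in ANAC096, -2.12 in ANAC096+ABA, -3.86 in ABA and -6.49 in control. ABA arrays thus lay between the ANAC096 line and control for this set. The 28 probes at least 8-fold lower had medians of -7.98 in ANAC096, -7.55 in ANAC096+ABA, -4.56 in ABA and -4.15 in control. Of these 28 probes, 15 were well above background on no ANAC096 array and 15 on no ANAC096+ABA array. The medians of ANAC096 and ANAC096+ABA are therefore background signals rather than measured levels. Both sets were chosen with the control arrays, so a distance of ABA from control in them is not an independent measure of an ABA effect.

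Of the named probes, 3 kept their line difference with ABA. A_84_P21604 was 3.2 and 3.42 on the ANAC096+ABA arrays, against -3.32 and -3.3 on the ABA arrays, a change of 6.62 (SE 0.0786, limma adjusted p 1.4e-06). A_84_P761415 was -5.83 and -5.87 on the ANAC096+ABA arrays, against -0.85 and -0.88 on the ABA arrays. A_84_P11480 was -3.07 and -2.99 on the ANAC096+ABA arrays, against 0.95 and 0.96 on the ABA arrays. These groups did not overlap. A_84_P787940 was well above background on none of the 4 arrays with ABA, where its levels of -8.69 and -8.2 in ANAC096+ABA and of -7.55 and -7.64 in ABA have no measured difference.

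The direction of the many small changes depended on the scale. The array carries probes for E1A spike-ins, transcripts made to be added to the RNA in known amounts before labelling, of which 7 of 10 were well above background. Relative to the 75th percentile their mean level was 0.66 ± 0.094 in ANAC096 and 0.04 ± 0.0049 in control (SD, n = 2 each). Each of the 7 spike-ins was higher on both ANAC096 arrays than on both control arrays, by 0.56 to 0.7, over levels from about -5 to 5. Before any scaling the mean log2 signal of the spike-ins was 13.18 in ANAC096 and 12.95 in control, while the 75th percentile was 12.52 in ANAC096 and 12.91 in control. The share of added transcript in each labelling, and the amount of RNA in the seedlings, were not measured apart.

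**Figure D5:**
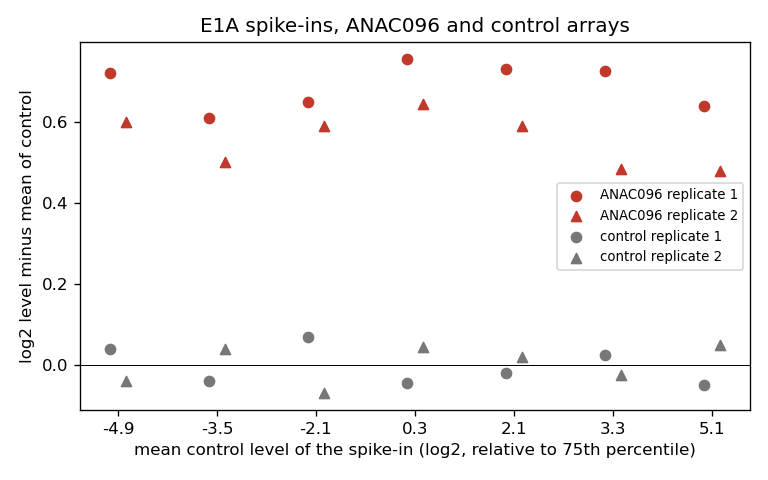
Each column is 1 of the 7 E1A spike-ins well above background, ordered by its mean control level, and each point is the log2 level on 1 array minus the mean of the 2 control arrays, relative to the 75th percentile. Points of both ANAC096 arrays lie above both control arrays for each spike-in, with mean differences of 0.56 to 0.7.

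Scaled to the spike-ins, the median change of all tested probes was -0.66, against -0.04 on the 75th percentile scale, and 1003 probes were at least 2-fold higher but 6830 at least 2-fold lower. At least 2-fold on both scales were 993 rises, 40.6% of the 2443, and all 819 falls. The spike-in scaling lowers every change by 0.62, so each fall past 2-fold had to stay past it, and no change past 2-fold could turn. The named probes had spike-in-scaled changes of 6.37 for A_84_P21604, 6.32 for A_84_P787940, -6.2 for A_84_P761415 and -5.01 for A_84_P11480.

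Probes past 2-fold on both scales were followed on the arrays with ABA. Of the 993 rises, 662 (66.7%) were called higher in ANAC096+ABA than in ABA on both scales, against 22% of all tested probes. Of the 819 falls, 383 (46.8%) were called lower on both scales, against 5.44% of all tested probes. With ABA the spike-ins moved the other way, being 0.36 lower in ANAC096+ABA than in ABA relative to the 75th percentile. The median line difference with ABA was thus 0.85 on the 75th percentile scale and 1.21 on the spike-in scale for the rises, and -0.69 and -0.33 for the falls.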

How the data were processed

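Per the file headers, the authors extracted the deposited intensity values with Feature Extraction 10.7.1.1, protocol GE1_107_Sep09, from 1-colour arrays of design 031025. The processed signal is background-subtracted and detrended, and array number limits its precision. Flags for background, saturation and outliers, other values of these deposited files, were used as given. The authors also deposited log2 values, which equal quantile-normalized log2 median signals within 5e-09.

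Here log2 processed signals were scaled to each array's 75th percentile over all 62976 spots (5252 and 6552 for ANAC096, 8128 and 7309 for control), and spots of a probe averaged. Outlier spots (376 to 1230 per array) and 1319 control spots were left out. Of the tested probes, 492 lacked a value on 1 or more of the 4 arrays and were fitted on the others. A limma model (version 3.58.1, R 4.3.3) took the 4 group means over the 8 arrays (lmFit, eBayes; Benjamini-Hochberg over 34503 probes, threshold 0.05; 4 residual degrees of freedom). The script was tested on simulated data.

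Named probes are the 2 largest rises and 2 largest falls that were called, at least 2-fold, measured on all 4 arrays and not overlapping between groups. Members, lists and tests were chosen with earlier results of these data known. Gene lists were not used because 0 probe identifiers matched the reference table. No column held a mean signal, so normexp used the median signal. Alternatives were background correction, scaling, filters, arrays in the fit, the spread model, a replicate block and leaving out each array.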

Additional observations from a re-analysis of the deposited data

Results flagged for a closer look

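Interactions in limma (line difference with ABA minus that without) were called for the 4 named probes. These probes were chosen as the largest changes without ABA, which the interaction subtracts, so the choice favours smaller differences with ABA and the values are a description. For A_84_P21604 it was -0.37 (SE 0.111, limma adjusted p 4.0e-02), but 0.61 with spike-in scaling, so the direction depends on the scale, and without 1 array it was no longer called in 6 of 8 fits (limma adjusted p up to 0.107). For A_84_P761415 it was 0.59 (SE 0.0617, limma adjusted p 1.0e-03) and for A_84_P11480 0.39 (SE 0.0827, limma adjusted p 1.3e-02). Both falls were thus measured as smaller with ABA before spike-in scaling. On the spike-in scale the values were 1.58 and 1.38. That scaling raises every interaction alike, so positive values had to stay positive, and the second scale is no separate support. With ABA replicate 1 left out, A_84_P11480 kept a value of 0.39 but was no longer called. For A_84_P787940 the signals gave -7.8 (SE 0.234, limma adjusted p 1.5e-05), which has no measured size because the probe was well above background on no array with ABA.

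A set of 122 probes differed between the lines by 2-fold or more in opposite directions, lower with ABA and higher without, and the interaction was called lower for each of them on both scales. With spike-in scaling, 118 of them were still called lower with ABA and higher without, 35 of them by at least 2-fold both ways. They were chosen by these opposite signs, so the counts are a description. They belong to the 2443 rises, and 3.36% of all tested probes were called at least 2-fold lower with ABA. Among the 2443 rises, 163 were well above background on no ANAC096+ABA array and 192 on no control array. How many of the 122 were among these is not given here. For such probes a change with or without ABA is a bound or was not measured.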

How the results depend on the processing

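The changes of the 4 named probes passed the threshold in all 20 alternative fits (their size leaves no room for the spike-in shift to turn them), the log2 change being 6.37 to 7.04 for A_84_P21604, 5.42 to 7.06 for A_84_P787940, -6.2 to -4.65 for A_84_P761415 and -5.01 to -4.3 for A_84_P11480. Spike-in scaling gave 1003 probes at least 2-fold higher and 6830 lower, and 2572 higher and 25670 lower at any fold. Of its own 2-fold probes, 20.2% were called in the same direction with ABA. The share of 65.6% without spike-in scaling covers a different set of probes, so these shares do not follow the same probes. Of probes past 2-fold on both scales, 758 of 993 rises and 385 of 819 falls were called in the same direction with ABA on the spike-in scale. The spike-in shift with ABA was -0.36, so that scaling raises every line difference with ABA, which favours higher calls over lower ones. The shares of all tested probes called on that scale with ABA are not given here. These counts and the 20.2% therefore say nothing particular to the rises or falls. Normexp with quantile normalization of the median signals gave 1577 higher and 521 lower at 2-fold. Quantile normalization without normexp gave 2149 higher and 1127 lower, so the excess of rises was smaller there. The authors' values gave 1638 higher and 559 lower. With no filter on dim probes 11131 were higher and 10661 lower at any fold, so that balance turned. Leaving out 1 array gave 2230 to 2729 rises and 813 to 870 falls past 2-fold, 7581 to 9695 higher and 9431 to 10846 lower at any fold, and 60.4% to 70% of the 2-fold probes called in the same direction with ABA. The interaction was called against the change for 66.2% of the 2-fold probes. This share was 61% with no filter, 75.6% with the authors' values, 76.7% with normexp and quantile normalization and 89.9% with spike-in scaling. Each share covers the 2-fold probes of its own fit. The shares of all tested probes called in the interaction are not given for these alternatives. The differences between fits therefore cannot be read as particular to the 2-fold probes. Most of those on the spike-in scale are falls, which that scaling moves towards smaller differences with ABA. The interaction of A_84_P21604 was 0.61 with spike-in scaling, turned in sign, and missed the threshold in 6 of the 8 fits without 1 array and with no filter. Replicate numbers are shared between groups by the titles, but same-numbered arrays of ANAC096 and control did not deviate together (r -0.09 across probes). The replicate block gave 2432 probes past 2-fold upwards and 826 downwards. On the 4 arrays alone, a choice made after seeing the data, the replicate block left 7107 probes called lower at any fold. The cause of these shifts was not tested. Signal over background limits 369 of the rises and 183 of the falls, which were not well above background on all 4 arrays.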
